A study of Rattus norvegicus with 18 samples.

Results

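The genes described here are the 8 measured members of the MYC and MAX network, a set of transcription factors that share 1 dimerization partner. They are Myc, Mycn, Max, Mxd1, Mxd3, Mxd4, Mxi1 and Mnt, found by symbol in a table of 17312 genes. All 8 passed the filter used here, a 6-group mean of 1 FPKM or more, as did 10545 genes in all. The set was chosen by a measured value: Myc differed in opposite directions in the 2 arms after 48 h of phenylephrine, so that contrast is given for Myc as a description and supports nothing.

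The RNA came from ventricular heart muscle cells of Sprague-Dawley rat pups (NRVM, day 2), grown in serum and then kept in serum-free medium before any drug. A pretreatment of 24 h with vehicle or SR9009 was followed by 0, 4 or 48 h of phenylephrine (PE), which gives 6 groups of 3 libraries. SR9009 is a synthetic agonist of the transcriptional repressors REV-ERBα and REV-ERBβ, and PE activates α1-adrenergic receptors and makes cultured myocytes hypertrophic. The groups are vehicle at 0 h, vehicle with 4 h of PE, vehicle with 48 h of PE, and the same 3 times with SR9009; the labels used here give no dose of either drug, and do not say whether the 3 libraries of a group came from separate cell preparations. No group was kept for 4 or 48 h without PE, so PE and time in culture cannot be told apart within an arm.

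The authors combined the 3 libraries of a group into 1 FPKM (fragments per kilobase of transcript, scaled to mapped fragments) and gave confidence bounds below and above it. No standard deviation or test could therefore be computed. FPKM is a level per length and allows genes to be compared. A difference below is one of log2(FPKM + 1), with the widest range that the bounds allow in parentheses. A gene was called higher or lower when the difference was at least 1 (2-fold) and that range excluded 0. Depth is unknown; the table's total FPKM was lowest in vehicle at 0 h, 609018, and highest in vehicle at 48 h, 710198. The bounds lay, at the median of genes with 5 FPKM or more, 14.8% to 15.0% of the value to either side.

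The labelled cell type was checked first. All 9 measured cardiomyocyte markers were above 0 in every group, with a summed level between 12142 FPKM (SR9009, 0 h) and 39344 FPKM (vehicle, 48 h). Actc1 dominates the sum of vehicle at 48 h, with 21530 FPKM. The median of the 9 markers was lowest in that same group, at 1386 FPKM. Summed levels were 823 to 1768 FPKM for 8 fibroblast markers, with Col1a2 listed at 0 in all groups, and 824 to 1920 FPKM for 6 smooth muscle markers. They were 13.0 to 39.4 FPKM for 9 macrophage markers and 13.0 to 22.5 FPKM for 8 endothelial markers. The RNA is of the whole culture, so a change in the number of cells of a type and a change in RNA per cell cannot be told apart.

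MYC proteins bind DNA only as dimers with MAX, mainly at the E-box CACGTG, and raise transcription of genes for ribosome assembly, nucleotide synthesis, nutrient uptake and cell division. MXD1, MXD3, MXD4, MXI1 and MNT compete for MAX and for the same sites and recruit SIN3 and histone deacetylases, which repress. In heart muscle, Myc is known as a gene that hypertrophic stimuli induce, while MXD proteins are associated with cells that have left the cell cycle.

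Promoter windows of 6 members were found in a RefSeq table of build GRCr8, each running from 250 bases before to 50 after a gene's start. Myc and Mycn had none. The E-box CACGTG, which reads the same on both strands, was present in the windows of Max, Mnt and Mxd4, and not in those of Mxd1, Mxd3 and Mxi1. It was present in 6.65% of 27457 genes with a window, taking the first window listed for each gene, and in 9.44% of the 7920 such genes that passed the filter on level. It began 33 bases before the start of Max, 123 before that of Mnt and 197 before that of Mxd4. The sequence AGGTCA, which REV-ERB and related nuclear receptors bind, was searched on both strands and was in none of the 6 windows. It was in 15.7% of all genes with a window and in 11.5% of those that passed the filter on level. The 250 bases before the start are shown for the 3 genes with an E-box, whose own RNA levels behaved differently, with the E-box in capitals.
Max, chr6:101395291-101395540, minus strand: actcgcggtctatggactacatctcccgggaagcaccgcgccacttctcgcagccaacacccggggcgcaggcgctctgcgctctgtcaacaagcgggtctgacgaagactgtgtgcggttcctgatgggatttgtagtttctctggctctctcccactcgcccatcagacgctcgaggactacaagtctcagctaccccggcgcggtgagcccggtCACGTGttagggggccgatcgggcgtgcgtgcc
Mnt, chr10:60197709-60197958, plus strand: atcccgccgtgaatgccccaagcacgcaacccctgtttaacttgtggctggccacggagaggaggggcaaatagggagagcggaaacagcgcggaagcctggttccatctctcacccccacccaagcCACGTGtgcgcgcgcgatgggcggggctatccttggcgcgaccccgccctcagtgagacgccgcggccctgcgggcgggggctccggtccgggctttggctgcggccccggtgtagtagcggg
Mxd4, chr14:80786531-80786780, plus strand: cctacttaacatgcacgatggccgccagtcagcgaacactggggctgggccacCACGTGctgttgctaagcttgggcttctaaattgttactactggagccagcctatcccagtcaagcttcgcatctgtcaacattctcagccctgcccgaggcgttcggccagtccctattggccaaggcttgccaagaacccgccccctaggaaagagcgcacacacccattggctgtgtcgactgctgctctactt
The motif is shared by Max and Mnt, whose levels varied least among the 8 genes, and by Mxd4, whose level varied by 3.27-fold. A match is a description of these letters and not of binding.

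Myc, the most widely studied MYC gene (chromosome 7, 102586313 to 102591239, rn6), had its lowest and highest levels at the same time point. It stood at 6.12 FPKM (bounds 4.99 to 7.24) in vehicle at 0 h, 7.20 (5.97 to 8.42) at 4 h and 17.6 (15.1 to 20.2) at 48 h of PE. With SR9009 it stood at 15.6 FPKM (13.2 to 18.0) at 0 h, 8.31 (7.01 to 9.61) at 4 h and 3.38 (2.58 to 4.17) at 48 h. The vehicle series ends at its highest value and the SR9009 series at its lowest. In the order of the 6 levels, vehicle at 48 h and SR9009 at 0 h had overlapping bounds. The next 3, SR9009 at 4 h, vehicle at 4 h and vehicle at 0 h, overlapped as neighbours, and SR9009 at 48 h lay below all of them with no overlap with its neighbour.

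**Figure D1:**
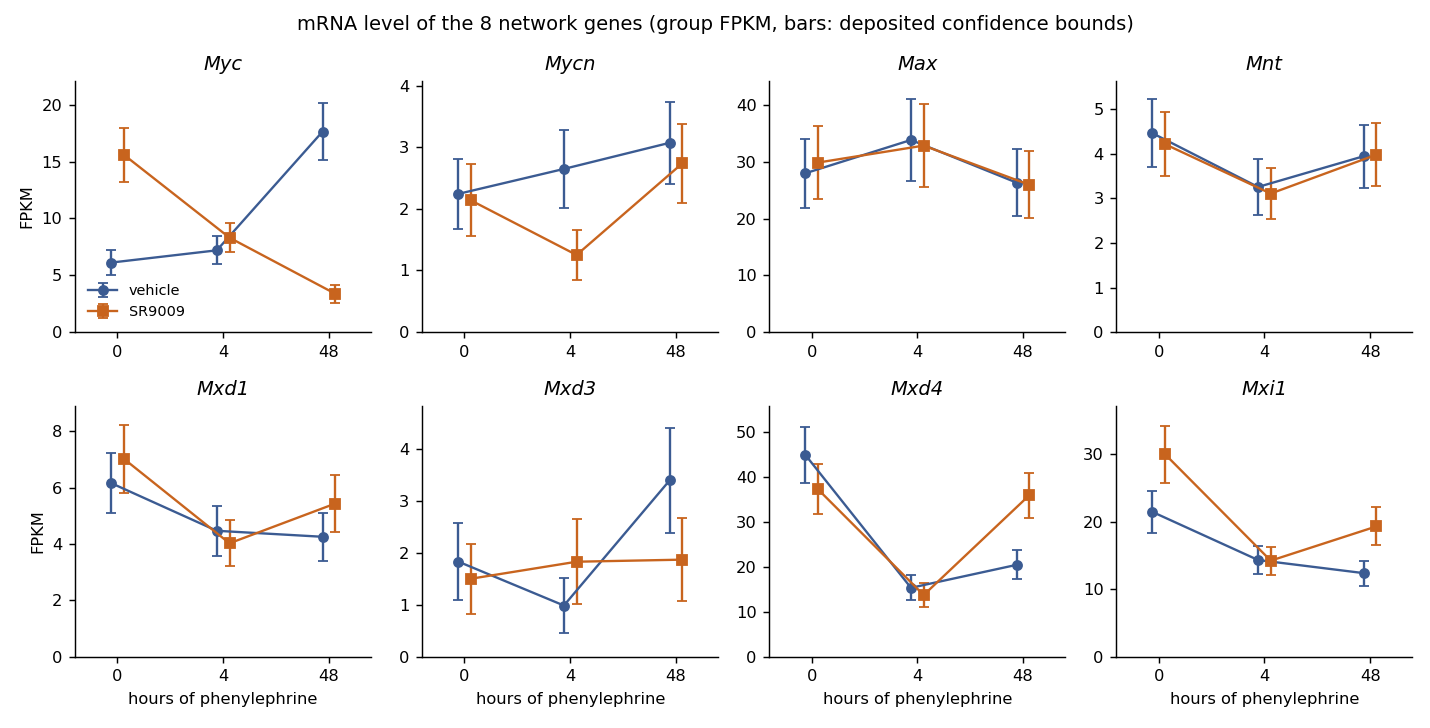
FPKM of the 8 network genes (y axis, from 0) against hours of PE (x axis, evenly spaced times) in vehicle (blue circles) and SR9009 (orange squares), with the deposited confidence bounds as bars. The lines of Myc cross, from 6.12 to 17.6 FPKM in vehicle and from 15.6 to 3.38 with SR9009; Mxd4 and Mxi1 are lower at 4 h in both arms, and Max is nearly level.

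The SR9009 difference of Myc was already present before PE and had the opposite sign to that at 48 h. At 0 h Myc was 2.55 times as high with SR9009 as with vehicle in FPKM, a difference of 1.22 (0.79 to 1.66). It was the only member called at 0 h, where 1.07% of the 10415 genes compared were called, and 30 genes had a larger positive difference. Both 0 h values also enter the contrast by which the set was picked. At 4 h of PE, which that contrast does not use, the arms stood at 7.20 and 8.31 FPKM with overlapping bounds, and the difference of 0.18 (-0.24 to 0.61) was not called. At 48 h Myc was 5.22 times as high in vehicle as with SR9009, and 49 of 10408 genes had a more negative difference than its -2.09 (-2.56 to -1.64).

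Within the vehicle arm, most of the difference of Myc lay between 4 and 48 h of PE. It was 0.20 (-0.24 to 0.65) from 0 to 4 h, 1.19 (0.78 to 1.60) from 4 to 48 h, called as higher, and 1.39 (0.97 to 1.82) from 0 to 48 h, called as higher. Within the SR9009 arm the level was lower at each later time. The difference was -0.84 (-1.24 to -0.42) from 0 to 4 h, under the 2-fold size, -1.09 (-1.57 to -0.63) from 4 to 48 h and -1.92 (-2.40 to -1.46) from 0 to 48 h, the last 2 called as lower. The interaction, which is the vehicle arm's PE difference subtracted from that of the SR9009 arm, was -3.31 (-4.22 to -2.43) at 48 h, with 6 of 10394 genes more negative. At 4 h it was -1.04 (-1.90 to -0.18), just past the required size; with FPKM rescaled to equal sums or with centring on the median gene it was -0.99 and not called.

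Markers of dividing cells moved with Myc between the arms at 48 h and from 0 to 48 h in vehicle. They did not between the arms at 0 h or from 4 to 48 h with SR9009. The summed level of Mki67, Top2a, Cdk1, Ccnb1 and Ccna2 was 66.6, 53.5 and 162 FPKM at 0, 4 and 48 h in vehicle and 59.0, 41.3 and 45.2 FPKM with SR9009, and none was at 0. At 48 h all 5 were called lower with SR9009, with a median difference of -1.64, while at 0 h, where Myc was higher with SR9009, all 5 lay below 0 and 0 were called, with a median of -0.20. From 0 to 48 h in vehicle 4 of 5 were called higher. Over all genes 4.55% were called lower with SR9009 at 48 h and 4.87% higher from 0 to 48 h in vehicle. With SR9009, where Myc was called lower from 0 to 48 h, all 5 lay below 0 but 0 were called, with a median of -0.23. From 4 to 48 h all 5 were called higher in vehicle, as Myc was. With SR9009, where Myc was called lower, all 5 lay above 0 (median 0.19) with 0 called. From 0 to 4 h all 5 lay below 0 in both arms, where Myc differed by 0.20 in vehicle and -0.84 with SR9009. Fibroblast markers had the opposite sign to Myc in the vehicle arm, between the arms and in the interaction at 48 h, but not within the SR9009 arm. From 0 to 48 h in vehicle 6 of 7 compared were called lower (median -1.35), with SR9009 0 were (median -0.26), and the interaction called 5 of 7 higher. Over all genes 3.96% were called lower there in vehicle, and the interaction called 3.71% higher. Between the arms at 48 h 6 of 7 lay above 0 with SR9009 (median 0.66), with Lum and Dcn called higher, although the summed level, which Col1a1 and Col3a1 dominate, was 1057 FPKM in vehicle and 1053 with SR9009. Of 6 smooth muscle markers 3 lay above 0 and 3 below with SR9009 at 48 h. Cnn1 and Acta2 were called lower, Cnn1 at 229 FPKM in vehicle and 35.5 with SR9009, and 0 were called higher. Smtn stood at 14.5 FPKM in vehicle and 24.0 with SR9009. The interaction at 48 h called Smtn higher and Cnn1 and Acta2 lower. Macrophage markers summed to 39.4, 30.1 and 26.7 FPKM at 0, 4 and 48 h in vehicle and to 20.3, 13.0 and 14.4 FPKM with SR9009. At 0 h, where Myc was higher with SR9009, all 6 compared lay below 0 (median -0.73), with C1qa and C1qc called lower. Of 9 measured cardiomyocyte markers all lay below 0 with SR9009 at 0 h (median -0.54), with 0 called. From 0 to 48 h 6 were called higher with SR9009 (median 1.22) and 2 in vehicle (median 0.15), where Myc was also higher. Over all genes 1.26% were called higher with SR9009 and 4.87% in vehicle. The interaction at 48 h called 4 of 9 higher (median 0.53). Between the arms at 48 h the median was 0.10, with 1 called higher and 1 lower. The part of these cells in the Myc values was not tested.

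Mycn, the relative of Myc known from embryonic heart and neural tissue (chromosome 6, 38222555 to 38228379), was low throughout. It stood at 2.24, 2.65 and 3.07 FPKM at 0, 4 and 48 h in vehicle and at 2.14, 1.25 and 2.74 FPKM with SR9009. The SR9009 value at 4 h was the lowest of the 6, but its bounds (0.85 to 1.66) overlapped those of SR9009 at 0 h (1.55 to 2.72). The SR9009 difference at 4 h was -0.70 (-1.21 to -0.18), below the required size; with a pseudocount of 0.1 in place of 1 it was -1.02 and called as lower. No comparison of the 11 called Mycn by the main rule, and at 48 h the arms differed by -0.12 (-0.61 to 0.36). Mycn thus did not show the opposite directions of Myc: the differences from 0 to 48 h were 0.33 in vehicle and 0.25 with SR9009, with both ranges including 0.

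Max, the common partner (chromosome 6, 99985519 to 100011226), was the most abundant member by its mean. Its level was 28.0, 33.9 and 26.3 FPKM at 0, 4 and 48 h in vehicle and 29.9, 32.9 and 26.0 FPKM with SR9009. The highest value was 1.304 times the lowest, the smallest such ratio of the 8 genes, and neighbouring levels overlapped throughout. None of the 11 differences of Max was called, and its SR9009 differences were 0.09, -0.04 and -0.02 at 0, 4 and 48 h. The range of the last, -0.66 to 0.61, shows how wide a difference the bounds of Max leave possible.

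Mnt, the widely expressed MAX partner that opposes MYC in most cell types (chromosome 10, 61685241 to 61700491), was also nearly level. It stood at 4.47, 3.26 and 3.95 FPKM in vehicle and at 4.22, 3.11 and 3.98 FPKM with SR9009 at 0, 4 and 48 h. Both arms had their lowest value at 4 h, with differences from 0 h of -0.36 (-0.78 to 0.05) and -0.34 (-0.75 to 0.06), and no comparison called Mnt. The SR9009 differences were -0.07, -0.05 and 0.01.

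Among the MXD genes, Mxd4 (chromosome 14, 81819415 to 81830811) was the most abundant and the one with the largest differences. Its level was 45.0 FPKM (38.8 to 51.3), 15.4 (12.6 to 18.1) and 20.5 (17.3 to 23.7) at 0, 4 and 48 h in vehicle. With SR9009 it was 37.3 FPKM (31.8 to 42.9), 13.8 (11.2 to 16.3) and 36.03 (31.0 to 41.1). Both arms were low at 4 h with overlapping bounds, and at 48 h the SR9009 arm stood near its 0 h level while the vehicle arm did not. The difference from 0 to 4 h was -1.49 (-1.94 to -1.06) in vehicle and -1.38 (-1.85 to -0.92) with SR9009, both called as lower. From 4 to 48 h Mxd4 was called higher with SR9009, by 1.33 (0.88 to 1.79), and not in vehicle, where the difference was 0.39 (-0.07 to 0.86). From 0 to 48 h it was called lower in vehicle, at -1.10 (-1.52 to -0.69), and stood at -0.05 (-0.46 to 0.36) with SR9009. The interaction at 48 h was 1.048 (0.23 to 1.88) and called as higher, the opposite sign to that of Myc. At 48 h itself Mxd4 was 1.76 times as high with SR9009, a difference of 0.78 (0.37 to 1.203) whose range excludes 0 but which is under 2-fold. The fibroblast markers given above had medians of the same sign as Mxd4 from 0 to 48 h in vehicle, between the arms at 48 h and in the interaction at 48 h. The sign was also shared from 0 to 4 h in vehicle (fibroblast median -0.63 against -1.49) and with SR9009 (-0.50 against -1.38). From 4 to 48 h with SR9009 it was shared too, with 0.26 against 1.33. It was shared as well from 0 to 48 h with SR9009 and between the arms at 0 and 4 h, where the ranges of Mxd4 include 0. From 4 to 48 h in vehicle the signs differed, with a fibroblast median of -1.25 and 4 of 7 called lower, against 0.39 for Mxd4. They also differed in the interaction at 4 h, -0.27 against 0.11. The part of fibroblasts in the values of Mxd4 was not tested.

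Mxi1, another MAX partner that recruits SIN3 (chromosome 1, 274049676 to 274090071), was likewise low at 4 h in both arms. It stood at 21.4, 14.3 and 12.4 FPKM at 0, 4 and 48 h in vehicle and at 30.0, 14.2 and 19.3 FPKM with SR9009. SR9009 at 0 h was highest without overlap of its neighbour, and the 4 h values of the arms were almost equal. From 0 to 4 h Mxi1 was called lower with SR9009, at -1.02 (-1.42 to -0.63), and differed by -0.55 (-0.95 to -0.15) in vehicle. The call with SR9009 is at the edge of the rule, with -0.99 under quantile normalization and -0.97 with centring on the median gene. With SR9009 against vehicle the difference was 0.46 (0.07 to 0.86) at 0 h, -0.01 (-0.40 to 0.38) at 4 h and 0.60 (0.20 to 1.00) at 48 h. Its interaction at 48 h was 0.14 (-0.66 to 0.94) and was not called, since both arms had lower levels at 48 h than at 0 h.

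Mxd1, which is known to appear as cells differentiate (chromosome 4, 118451752 to 118472150), was of low level. It stood at 6.16, 4.47 and 4.26 FPKM in vehicle and at 7.03, 4.03 and 5.44 FPKM with SR9009 at 0, 4 and 48 h, and neighbouring levels overlapped throughout. Its largest difference was -0.68 (-1.13 to -0.22), from 0 to 4 h with SR9009, and no comparison called it. Mxd3, which unlike the other MXD genes is known from dividing cells (chromosome 17, 9830326 to 9834052), was lowest of the 8 by mean. Its level was 1.83, 0.99 and 3.40 FPKM in vehicle and 1.503, 1.83 and 1.87 FPKM with SR9009. The vehicle value at 48 h was the highest, and the difference from 4 h was 1.15 (0.42 to 1.90), called as higher. The SR9009 difference at 48 h was -0.62 (-1.39 to 0.12) and was not called.

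The number of members called in each comparison, 0 to 2 of 8, is given beside the share of all genes called. From 0 to 4 h of PE 1 of 8 members was called in vehicle and 2 of 8 with SR9009, where 5.08% and 4.48% of all genes were called. From 0 to 48 h the numbers were 2 of 8 and 1 of 8, against 8.82% and 2.42% of genes, and from 4 to 48 h they were 2 of 8 in each arm, against 6.22% and 4.49%. With SR9009 against vehicle 1 of 8 was called at 0 h, 0 of 8 at 4 h and 1 of 8 at 48 h, against 1.07%, 1.55% and 6.89% of genes. The interaction called 1 of 8 at 4 h and 2 of 8 at 48 h, against 0.423% and 9.05%. Comparisons share groups, so these counts are not independent, and Myc entered the set for its 48 h values. Over the 11 comparisons Myc was called in 8, Mxd4 in 5, Mxd3 and Mxi1 in 1 each, and Mycn, Max, Mxd1 and Mnt in 0. The median difference of the 8 members was -0.37 from 0 to 4 h in vehicle and -0.58 with SR9009, where that of all genes was -0.02 and -0.06. In the other 9 comparisons it lay between -0.21 and 0.32.

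**Figure D2:**
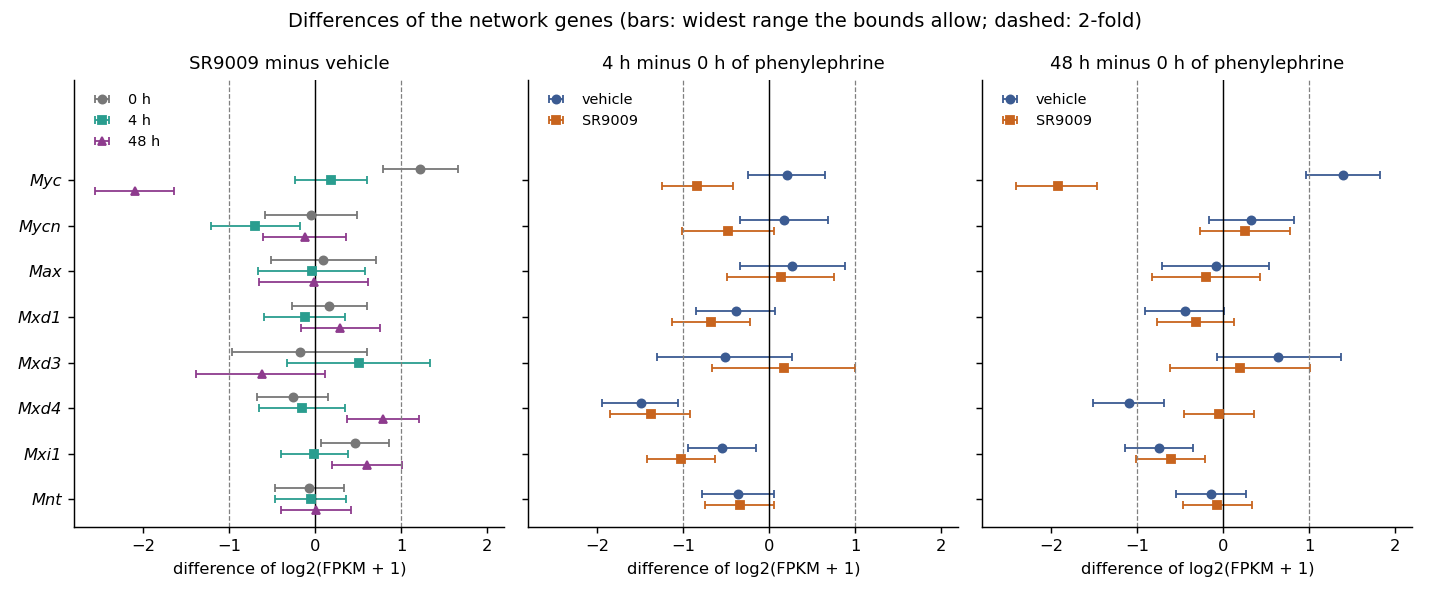
Differences of log2(FPKM + 1) (x axis) for each network gene (y axis): SR9009 minus vehicle at 3 times (left), and 4 h (middle) or 48 h (right) minus 0 h of PE in each arm; bars are the widest range the bounds allow and dashed lines mark 2-fold. Myc lies at 1.22 and -2.09 on opposite sides of 0 in the left panel, and Mxd4 is near -1.4 in both arms at 4 h but apart at 48 h.

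Because all these proteins compete for MAX, the levels of the 2 classes were also summed within each group; a ratio within a group does not depend on the scaling between groups by sums. Myc and Mycn together made 9.58% (6.83% to 13.1%) of the summed FPKM of both classes in vehicle at 0 h, 20.4% (15.0% to 27.1%) at 4 h and 31.8% (25.2% to 39.3%) at 48 h. With SR9009 they made 18.1% (13.8% to 23.4%), 20.6% (15.2% to 27.2%) and 8.41% (5.73% to 11.8%). The ranges of the arms did not overlap at 0 h and 48 h and overlapped at 4 h. The Myc values at 0 h and 48 h are those by which the set was chosen, so the opposite directions at these times in part restate that choice. With SR9009 at 48 h Mycn made 2.74 of the 6.12 FPKM of the MYC-type sum, and without Mycn and Mxd3 the share was 4.96%, below its range; the shares of the other groups stayed within theirs. The values hold mRNA only and say nothing of protein or of dimers.

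The classes contributed differently to these shares at different times. From 0 to 4 h in vehicle the MYC-type sum was 8.36 and then 9.84 FPKM, while the sum of Mxd1, Mxd3, Mxd4, Mxi1 and Mnt went from 78.9 to 38.4 FPKM. From 4 to 48 h the MYC-type sum reached 20.7 FPKM and the other stood at 44.5 FPKM. With SR9009 the second class stood at 80.1, 36.9 and 66.6 FPKM and the MYC-type sum at 17.7, 9.56 and 6.12 FPKM. Mxd4 and Mxi1 alone made 73.9% to 84.2% of the second class. Per unit of Myc, the FPKM of Mxd4 was 7.36 times as high in vehicle at 0 h and 1.16 times at 48 h, and with SR9009 it was 2.39 times as high at 0 h and 10.7 times at 48 h.

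**Figure D3:**
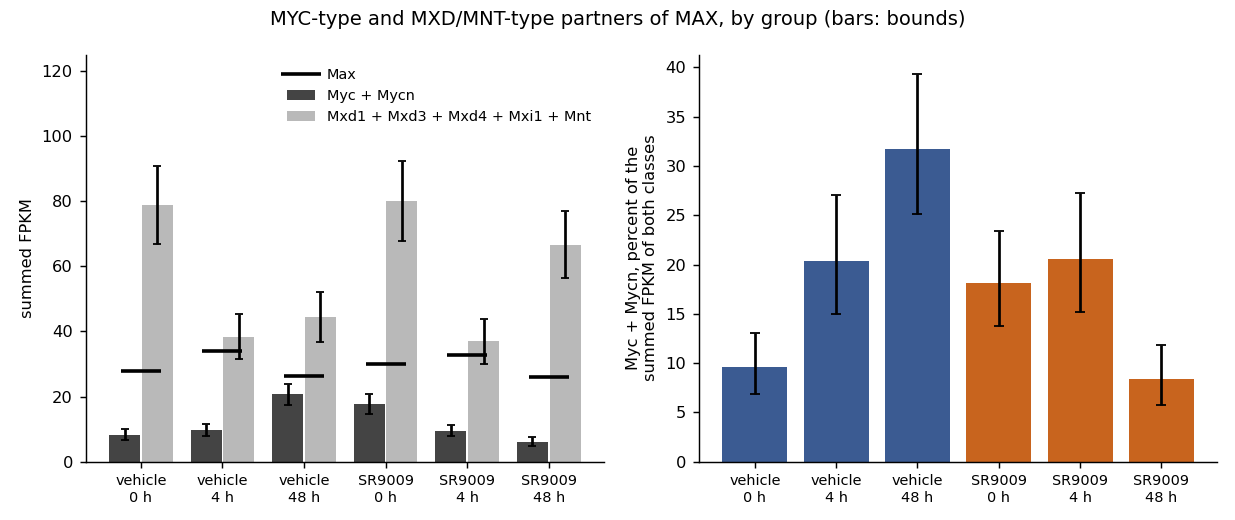
Left, summed FPKM of Myc and Mycn (dark bars), of Mxd1, Mxd3, Mxd4, Mxi1 and Mnt (light bars) and of Max (black line) in the 6 groups; right, Myc and Mycn as a percent of the summed FPKM of both classes; error bars use the deposited bounds. The share goes from 9.58% to 31.8% in vehicle and from 18.1% to 8.41% with SR9009, and Max stays between 26.0 and 33.9 FPKM.

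Other genes of the network and its cofactors were taken from lists chosen with earlier results of these data known. Mlx, the MAX-like partner of the MondoA and ChREBP branch, stood at 30.7 to 45.4 FPKM and was called in 0 of 11 comparisons. Mlxipl, which encodes ChREBP, lay between 0.66 and 1.58 FPKM, and Mycl was at most 0.097 FPKM and listed at 0 in vehicle at 4 h and with SR9009 at 48 h. Of 11 MYC coactivators and 6 measured SIN3, deacetylase and MIZ1 repression partners, 0 were called in any of the 11 comparisons. Of 7 measured genes of MYC protein turnover 2 were called, Plk1 and Aurka, both mitotic kinases. Plk1 was higher from 4 to 48 h in vehicle (1.24, 0.79 to 1.71) and lower with SR9009 at 48 h (-1.67, -2.15 to -1.197), and Aurka by 1.08 and -1.24. In both comparisons all 5 markers of dividing cells were called in the same direction as these genes. From 0 to 48 h in vehicle 4 of 5 markers were called higher, and 0 of the 7 turnover genes.

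The nucleolar and ribosome assembly genes, a core group of known MYC targets, lay above their 0 h level at 4 h of PE in both arms, when Myc was at neither extreme. From 0 to 4 h 17 of 17 measured genes lay above 0 in vehicle, with 7 called higher, 0 lower and a median of 0.87, against -0.02 for all genes. Over all genes 2.75% were called higher. With SR9009 17 of 17 also lay above 0, with a median of 0.70 and 0 called, while Myc differed by -0.84. Gnl3, which encodes nucleostemin, stood at 27.4 FPKM at 0 h, 68.8 at 4 h and 40.2 at 48 h in vehicle and at 35.8, 60.2 and 21.7 FPKM with SR9009. Nolc1 (1.27), Nop58 (1.24), Wdr43 (1.22), Rrp9 (1.08) and Nop2 (1.07) were also called higher at 4 h in vehicle. With FPKM rescaled to equal sums 4 genes were called. From 4 to 48 h in vehicle, where Myc was called higher, 15 of 17 lay below 0 with 0 called, and Fbl and Bop1 lay above. At 4 h the arms differed little: 10 of 17 genes were above 0 with SR9009, and the median was 0.04.

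At 48 h, against 0 h and between the arms, the genes of this list lay mostly on the side of 0 where Myc lay. None met the size rule between the arms. These contrasts use groups that enter the one by which Myc was picked. Against 0 h 16 of 17 lay above 0 in vehicle (median 0.59) and 17 of 17 lay below 0 with SR9009 (median -0.33), with 0 called in either. The medians kept these signs under each of the 5 alternatives of scale or filter, between 0.37 and 0.60 in vehicle and between -0.43 and -0.29 with SR9009. From 4 to 48 h with SR9009 9 of 17 were called lower and 0 higher, Gnl3 by -1.43 (-1.86 to -1.01) and Wdr43 by -1.28 (-1.70 to -0.87) among them. Over all genes 2.0% were called lower there. With SR9009 against vehicle the median was 0.26 at 0 h (16 of 17 above 0) and -0.68 at 48 h (16 of 17 below 0), with 0 called at both. The interaction at 48 h called 5 of 17 lower, Gnl3, Wdr43, Nop2, Rrp9 and Wdr12, with a median of -0.95. Over all genes it called 5.34% lower and 9.05% in either direction. An E-box was in 6 of the 16 windows found for this list (37.5%), against 9.44% of the genes that passed the filter on level. Those 6 include a gene of the list that is not among the 17 measured. AGGTCA was also in 6 of the 16 (37.5%), against 11.5%. Among the target lists described below, an E-box was in 1 of 9 nucleotide, 2 of 9 metabolic and 3 of 5 translation factor windows. It was in 1 of 6 cell cycle and 0 of 6 MYC-repressed windows. AGGTCA was in 0 of 9 nucleotide, 0 of 9 metabolic and 0 of 5 translation factor windows. For cell cycle and MYC-repressed windows it was 1 of 6 each. A link of these matches to the levels was not tested.

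Among nutrient and metabolic targets, an amino acid transporter subunit was called at 0 h, as Myc was. Slc3a2, the heavy chain of the transporter CD98, stood at 139, 140 and 139 FPKM in vehicle and at 281, 337 and 80.8 FPKM with SR9009 at 0, 4 and 48 h. It was called higher with SR9009 at 0 h (1.01, 0.58 to 1.44) and at 4 h (1.26, 0.85 to 1.67), the only gene of the 10 lists called in either comparison. Its light chain Slc7a5 stood at 53.5, 38.6 and 51.5 FPKM in vehicle and at 98.8, 53.2 and 25.1 FPKM with SR9009. From 0 to 48 h with SR9009 both were called lower, Slc7a5 by -1.93 (-2.34 to -1.52) and Slc3a2 by -1.78 (-2.20 to -1.37). At 48 h Slc7a5 was lower with SR9009 by -1.01 (-1.41 to -0.60), a call lost with 3 of the scalings tried.

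Tfrc, the transferrin receptor, and the hexokinase Hk2 were called higher from 0 to 4 h of PE in both arms. Tfrc was called higher from 0 to 4 h in vehicle (1.44, 1.06 to 1.83) and stood at 58.3, 160 and 178 FPKM there and at 70.6, 190 and 91.0 FPKM with SR9009. Hk2 stood at 16.3, 44.6 and 23.3 FPKM in vehicle and at 20.0, 47.1 and 12.5 FPKM with SR9009. The interaction at 48 h called 6 of 11 genes of this list lower and 0 higher: Slc7a5 (-1.88), Slc3a2 (-1.78), the serine hydroxymethyltransferase Shmt2 (-1.65), Tfrc (-1.24), Hk2 (-1.13) and the glucose transporter Slc2a1 (-1.01). All 11 lay below 0, with a median of -1.01. Over all genes 5.34% were called lower in this interaction.

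Of 10 measured nucleotide and polyamine genes 9 lay below 0 in the interaction at 48 h, with a median of -0.59. Odc1, the ornithine decarboxylase that starts polyamine synthesis, was called there at -1.52 (-2.33 to -0.69), with 56.5, 84.7 and 95.8 FPKM in vehicle and 89.8, 97.0 and 52.4 FPKM with SR9009. The nucleoside diphosphate kinase gene Nme1 was called higher from 0 to 48 h in vehicle, at 1.15 (0.72 to 1.58), and not with FPKM rescaled to equal sums. All 4 measured translation factor genes lay below 0 in that interaction, with a median of -0.53 and 0 called.

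Cell cycle targets did not share 1 direction. Over all genes 4.87% were called higher and 3.96% lower from 0 to 48 h in vehicle, and 4.55% lower with SR9009 at 48 h. From 0 to 48 h in vehicle 2 of 8 were called higher, the CDK-binding subunit gene Cks2 (1.42, 0.95 to 1.91) and E2f1 (1.052, 0.61 to 1.497), and 1 lower, the differentiation inhibitor Id2 (-1.39, -1.84 to -0.94). Id2 was also called lower from 0 to 48 h with SR9009, at -1.32 (-1.78 to -0.87), where Myc was lower. With SR9009 against vehicle at 48 h Cks2 (-1.63) and E2f1 (-1.27) were called lower, and Cdk4 stood at 84.7 and 95.7 FPKM.

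Genes known to be repressed by MYC did not share 1 direction. Cdkn2b, the CDK inhibitor p15, stood at 4.33, 5.27 and 18.3 FPKM in vehicle and at 6.54, 5.69 and 8.12 FPKM with SR9009, so that it was highest where Myc was highest. With SR9009 at 48 h Cdkn2b (-1.08) and the stress gene Gadd45a (-1.08) were called lower, the same sign as Myc, and 0 of 7 were called higher; with FPKM rescaled to equal sums 0 of 7 were called. Ccng2, which encodes cyclin G2 and is linked to cell cycle exit, had 17.8, 3.39 and 7.91 FPKM in vehicle and 18.2, 3.36 and 14.3 FPKM with SR9009, an order of levels close to that of Mxd4. The list's median at 48 h was -0.05 and changes sign with the scaling, between -0.06 and 0.04.

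**Figure D4:**
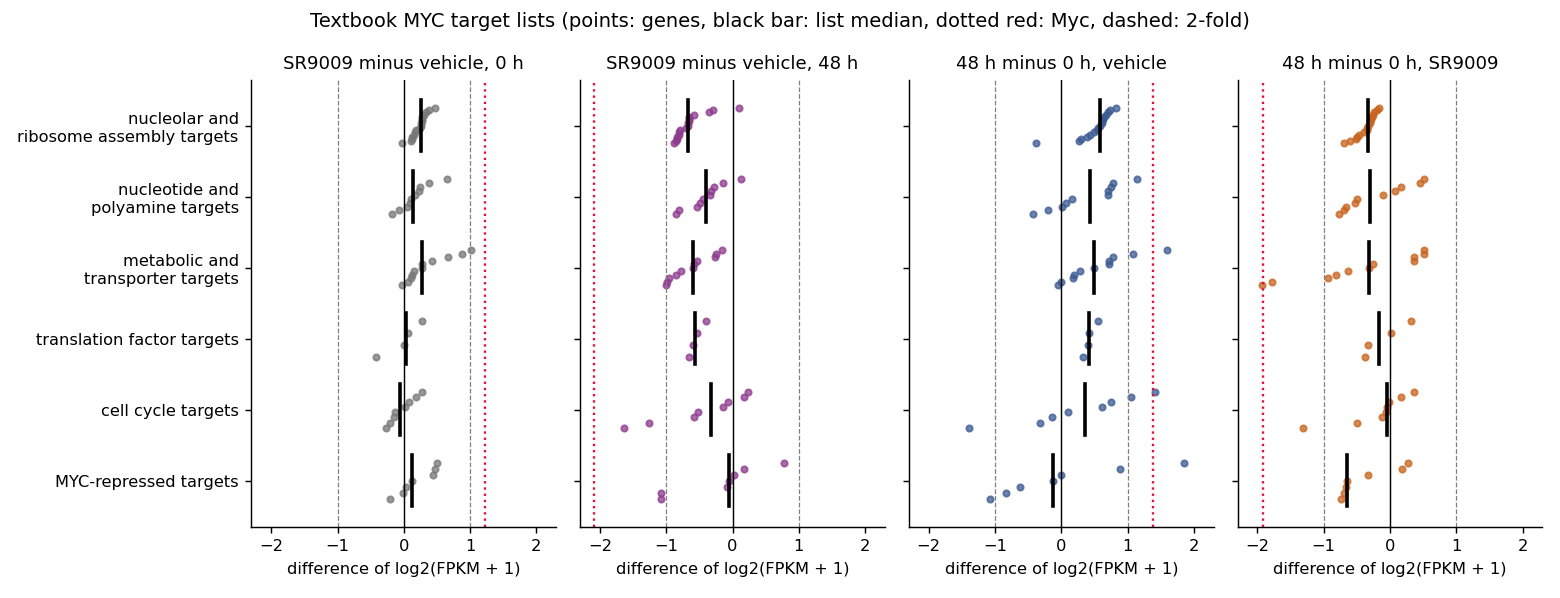
Differences of log2(FPKM + 1) (x axis) of the genes of 6 MYC target lists (y axis) for SR9009 minus vehicle at 0 h and 48 h and for 48 h minus 0 h of PE in each arm; black bars are list medians, the dotted red line is Myc and dashed lines mark 2-fold. The nucleolar list has medians of 0.26, -0.68, 0.59 and -0.33 in the 4 panels, each on the side of 0 where Myc lies and nearer to 0 than Myc. The nucleotide, metabolic and translation factor lists have medians of the same signs, the last only 0.03 in the first panel. All panels use groups that enter the contrast by which Myc was picked. From 4 to 48 h in vehicle and from 0 to 4 h with SR9009, not shown, the nucleolar median has the opposite sign to Myc.

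Profiles over the 6 groups were compared by the root mean square difference of centred log2(FPKM + 1), among 8115 other genes averaging 5 FPKM or more. Myc had no near neighbour: 0 genes lay within 0.25. Among those nearest were Smpdl3b (0.34), the stress-induced growth factor gene Gdf15 (0.35), Hid1 (0.36) and the branched-chain aminotransferase Bcat1 (0.37). Gdf15 stood at 46.7, 46.5 and 105 FPKM in vehicle and at 84.3, 91.5 and 38.4 FPKM with SR9009, higher than Myc's pattern at 4 h with SR9009.

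Mxd4 and Mxi1 had many near neighbours. There were 50 genes within 0.25 of Mxd4, and the nearest were Rtn4rl1 (0.13), the homeobox gene Irx3 (0.14), Ccdc28a (0.15), Tmem204 (0.16) and the collagen receptor gene Mrc2 (0.16). For Mxi1 there were 309, and the nearest were Glb1l (0.069), Man1c1 (0.073), the calcium channel gene Orai3 (0.092), Dpp7 (0.13) and Snx33 (0.13). Likeness rests on 6 group values each, which come from the same 18 libraries for every gene.

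**Figure D5:**
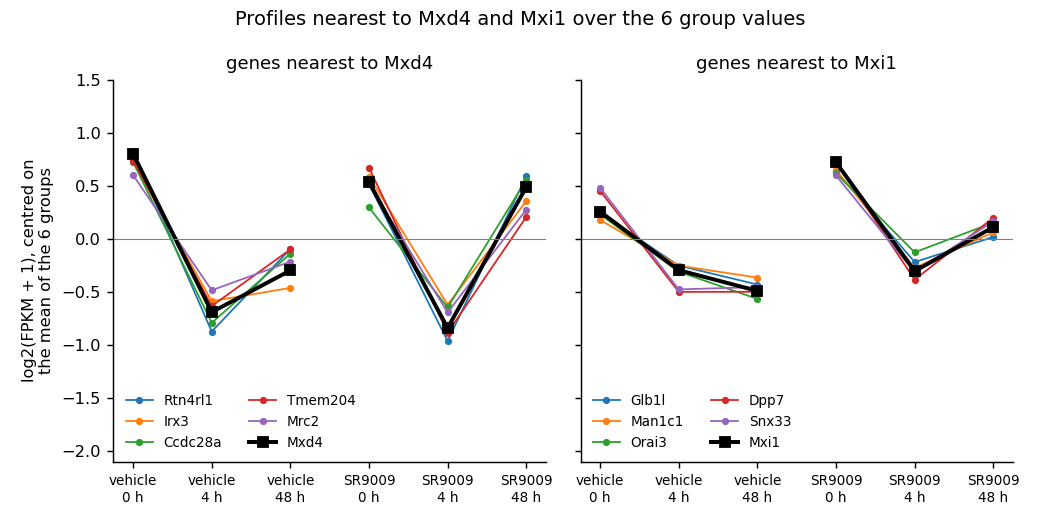
Log2(FPKM + 1) centred on the mean of the 6 groups (y axis) for Mxd4 and Mxi1 (black) and the 5 genes nearest to each (colours), with the groups on the x axis and lines joining times within an arm. The 5 profiles beside Mxd4 lie 0.13 to 0.16 from it, and those beside Mxi1 0.069 to 0.13.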

How the data were processed

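The 18 libraries were made with a TruSeq kit for stranded mRNA, per the labels' protocols, and the 6 groups came from the sample labels. The FPKM values and their bounds are those the authors deposited, 1 per gene and group, per the file headers. The submitters' processing notes name FastQC, Trim Galore, TopHat, Cuffdiff and build rn6. The confidence level of the bounds, the scaling between libraries and the use of strand in counting were not stated in those sources. No values per library were used, so nothing was tested and depth is unknown.

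Differences of log2(FPKM + 1), which understate those of low genes, were computed with Python 3.11.15 and pandas 2.3.3 for genes averaging 1 FPKM or more. No difference was computed where a value was listed at 0, had a failed estimate (status other than OK, 3 to 8 genes a group) or lay outside its own bounds (27 to 32 a group). All member values passed, and no member's locus overlaps another gene of the table. Locus starts were read as counted from 0 and written from 1, since lengths then equal those of RefSeq GRCr8 for 2074 genes, against 277 otherwise. The members and lists were chosen with earlier results of these data known. Named genes are all members, up to 6 called genes of each list with the largest differences, selected genes of those lists whose levels illustrate a pattern (Cdk4, Mlx, Mlxipl and Mycl, chosen after their values were seen), and the 5 genes nearest in profile to each member with a mean of at least 5 FPKM and a range of at least 1; 1 of those nearest to Myc is not reported here. Alternatives were a pseudocount of 0.1, no filter, 3 scalings and other size thresholds.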

Additional observations from a re-analysis of the deposited data

Results flagged for a closer look

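The PE difference of Myc at 48 h had opposite signs in the arms, 1.39 in vehicle and -1.92 with SR9009, each called by the size rule, and the SR9009 arm minus the vehicle arm was -3.31. Each arm has 1 combined value per time, so this difference was not tested, and it is the pattern for which the genes were picked. No other member was called in opposite directions in the arms at 4 or 48 h.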

How the results depend on the processing

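No paired analysis was possible because the table holds 1 value per group and no column carries a replicate number; leaving out a replicate was not possible for the same reason. Under a pseudocount of 0.1, no filter, equal sums, quantile normalization and median centring, all 440 member differences stayed within the ranges their bounds allow, and 0 called differences changed sign. The number of members called stayed within 1.5 times in 68 of 77 cases over 7 alternatives. The others were as follows. From 0 to 4 h with SR9009 it was 1 with quantile normalization and 1 with median centring, against 2, and 4 at 1.5-fold. At 1.5-fold it was also 2 from 0 to 48 h with SR9009, 1 for SR9009 at 4 h and 3 for SR9009 at 48 h. For SR9009 at 4 h it was 1 with a pseudocount of 0.1, against 0. For the interaction at 4 h it was 0 with equal sums and 0 with median centring, against 1. The Myc levels stayed within their bounds under equal sums and quantile normalization. Equal sums moved the median gene by over 0.1 in these comparisons: 4 h of PE in vehicle (-0.02, then -0.20), 48 h in vehicle (0.01, then -0.19), 4 h with SR9009 (-0.06, then -0.17), SR9009 at 48 h (-0.04, then 0.06) and the interaction at 48 h (-0.03, then 0.08). Over all genes it moved the calls at 4 h in vehicle from 287 higher and 242 lower to 198 and 407, and those of SR9009 at 48 h from 243 and 474 to 341 and 391. Alternatives for the target lists and the shares were added after the data were seen. The list counts moved by over 1.5 times in 74 of 770 cases. The share of Myc alone with SR9009 at 48 h, without Mycn and Mxd3, was 4.96%, against 8.41%, since Mycn is left out of the smaller sum.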
